A study of Mus musculus with 4 samples.

Results

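Collagens, laminins and integrins are the main scaffold proteins of the extracellular matrix and the receptors through which cells hold on to it. They were taken here as all genes whose mouse symbol has the form of a collagen chain (Col, number, a, number), a laminin chain (Lama, Lamb or Lamc with a number) or an integrin (Itga or Itgb with a suffix). Each gene was represented by 1 probe set of an Affymetrix mouse array, the one with the highest mean deposited signal over the 4 arrays, and was kept where that mean was at or above the 40th percentile of all non-control probe sets, a signal of 42.5. Of 81 such genes with a probe set of their own, 55 passed and were compared, among 12751 genes tested in all. They were 30 of 42 collagen genes, 8 of 10 laminin genes, 14 of 24 integrin subunit genes and 3 of 5 genes that carry an integrin name without encoding a subunit. The 26 below it were Col4a3, Col4a4, Col6a4, Col6a5, Col8a1, Col8a2, Col9a2, Col10a1, Col17a1, Col19a1, Col20a1, Col24a1, Lama3, Lamb3, Itga1, Itga7, Itgal, Itgam, Itgax, Itgb2, Itgb3, Itgb4, Itgb6, Itgb7 and the non-subunits Itgb2l and Itgbl1. At the edge of the filter, Itga2 and Lama2 lay just inside with mean deposited signals of 49.0 and 52.9, and Col8a2 and Col20a1 just outside with 40.6 and 40.3.

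Collagens are triple helices of 3 alpha chains. Some form cross-striated fibrils, collagen IV builds the network of basement membranes, and smaller classes decorate fibrils or span the cell membrane. Laminins are trimers of an alpha, a beta and a gamma chain and are the first proteins to assemble into a basement membrane. Integrins are pairs of an alpha and a beta subunit that bind these ligands outside the cell and link to the cytoskeleton inside. In the embryonic neural tube, a basement membrane rich in laminin surrounds the neuroepithelium. Progenitors keep a basal process attached to it through integrins, while neurons leaving the cycle move laterally along it.

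The cells came from embryos at E10.5 of mixed B6SJLF1 and ICR strains. In the Atoh1BAC-GFP line, GFP inserted into a bacterial artificial chromosome marks the Atoh1-derived dorsal interneuron 1 (dI1) population, and in the dNeurog1-GFP line a Neurog1 enhancer places GFP in the dorsal interneuron 2 (dI2) population. Neural tubes between the limb levels were dissociated with trypsin and sorted by GFP fluorescence. The labels call the samples GFP sorted without stating outright that the arrays hold the positive cells, and they are read here as such. Each population had 2 arrays, called replicates 1 and 2, described as biological replicates. How many embryos or litters lie behind an array is not stated in these sources, so p-values measure the spread between these 4 samples.

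As deposited, the trimmed mean (2% left out at each end) was 250 on both replicate 1 arrays and 500 on both replicate 2 arrays, so each array was multiplied to a trimmed mean of 500 before comparison. All signals below are on that scale. The median signal still differed by replicate number, at 138.1 (Atoh1-GFP) and 114.8 (dNeurog1-GFP) for replicate 1 but 75.97 and 75.44 for replicate 2. Every difference is taken on log2(signal + 32) as Atoh1-GFP minus dNeurog1-GFP, which makes changes of dim genes look smaller, so a positive value means a higher level in Atoh1-GFP cells. Differences are given over all 4 arrays and within each replicate number, and a call means an adjusted p under 0.05 in limma over all 12751 genes, either without the replicate number in the model or with it as a block. The sorted identities matched their labels: Atoh1 gave signals of 21412 and 19675 in Atoh1-GFP cells against 1771 and 1861 for dNeurog1-GFP, and Neurog1 had 172 and 176 against 1388 and 2469.

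Most collagen, laminin and integrin genes did not differ between the populations beyond the spread of the arrays, and the 4 that passed the test were all lower in Atoh1-GFP cells. They were the integrin subunits Itgb8 (log2 difference -1.37) and Itga6 (-0.66), the fibril-associated collagen gene Col12a1 (-1.16) and Itgb3bp (-0.87), which encodes a centromere protein named for its binding to integrin beta 3. These calls were made with the replicate block, where 4 of 55 members (7.27%) passed against 6.61% of all genes tested. Of the 4 lower calls, the background for lower calls alone was 3.79%, and 0 members were called higher, where the background was 2.82%. The share of members called in either direction was thus close to that of any gene. Without the block limma called 0 of the 55 members, against a background of 0.165% (0.0863% higher and 0.0784% lower). An unadjusted p under 0.05 in limma occurred for 5 of the 55 members and for 1103 of the 12751 genes tested. With the block these were 10 members and 2883 genes, a lower share of the members than of all genes.

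The medians were close to those of all genes. The 30 collagens had a median log2 difference of 0.06, the 8 laminins -0.09 and the 14 integrin subunits 0.04, while the median over all genes tested was 0.0. Of the 55 members, 53 differed by less than 2-fold in their mean. Only 1 of the 55, Itgb8, was at least 2-fold apart in the same direction within both replicate numbers, where 2.28% of all genes were (1.11% higher and 1.18% lower). The signals of the populations did not overlap for 15 members (27.3%), against 35.1% of all genes. Of these, 7 were higher in Atoh1-GFP cells, where the background was 16.1%, and 8 lower, where it was 19.0%. Itga4 is counted among the 7 although its replicate 2 signals were both 173 when rounded.

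**Figure D1:**
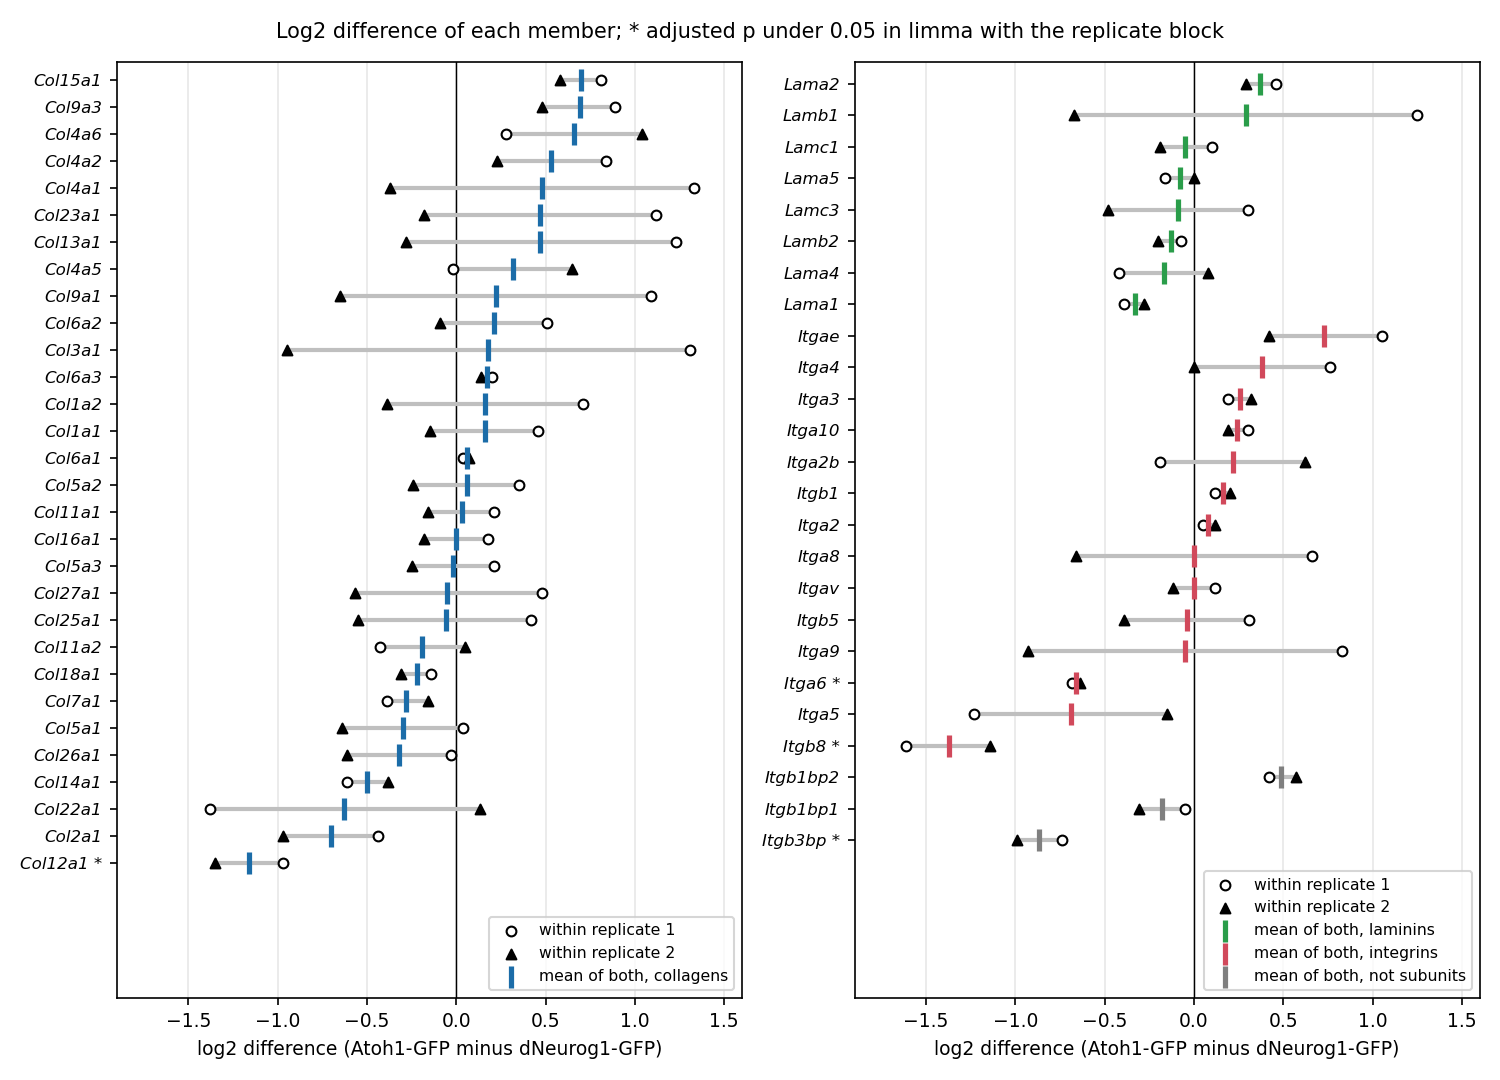
Log2 difference (Atoh1-GFP minus dNeurog1-GFP) of each of the 55 members, collagens on the left and laminins, integrins and integrin-named genes that are not subunits on the right. Open circles are the difference within replicate 1, triangles that within replicate 2, and coloured bars their mean. The 4 genes with an asterisk, Col12a1, Itga6, Itgb8 and Itgb3bp, lie left of 0 in both replicate numbers, while many grey lines cross 0.

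Promoter sequence is shown for Itgb8, the member with the largest difference, and for Col4a5 and Col4a6, which lie head to head as neighbours and are described together below. The bases before the annotated start are printed 5′ to 3′ on the strand of the gene, from RefSeq on GRCm38.p6, and leave out any stretch inside an annotated gene body, which shortens the Col4a5 and Col4a6 windows. E-boxes, the 6-base motif CANNTG that basic helix-loop-helix factors such as Atoh1 and Neurog1 bind, are in capitals. The Itgb8 window is chr12:119238277-119238526 on the minus strand, the Col4a5 window chrX:141475169-141475369 on the plus strand and the Col4a6 window chrX:141474096-141474326 on the minus strand.
Itgb8: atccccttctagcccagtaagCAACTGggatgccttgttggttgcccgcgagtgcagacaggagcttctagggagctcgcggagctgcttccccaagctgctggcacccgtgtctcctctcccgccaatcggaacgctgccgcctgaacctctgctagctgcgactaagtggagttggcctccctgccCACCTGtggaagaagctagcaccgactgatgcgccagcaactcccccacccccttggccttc
Col4a5: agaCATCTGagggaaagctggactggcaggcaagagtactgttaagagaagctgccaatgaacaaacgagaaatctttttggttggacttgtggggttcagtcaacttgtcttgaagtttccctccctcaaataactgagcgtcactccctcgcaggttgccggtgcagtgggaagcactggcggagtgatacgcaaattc
Col4a6: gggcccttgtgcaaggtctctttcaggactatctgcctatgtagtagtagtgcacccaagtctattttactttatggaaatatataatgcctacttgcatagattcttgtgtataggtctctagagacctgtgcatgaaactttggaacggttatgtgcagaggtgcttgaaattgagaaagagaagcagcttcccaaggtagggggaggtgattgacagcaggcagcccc

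The Itgb8 window held 2 E-boxes, CAACTG beginning 229 bases and CACCTG beginning 62 bases before the start, and the Col4a5 window held 1, CATCTG at 247 bases. The Col4a6 window held 0. The motif reads as CANNTG on both strands, and 66.2% of all 32851 promoter windows of 250 bases held at least 1. The form CAGCTG, which is 1 of the words CANNTG covers, occurred in 13.0% of all windows and in none of these. The CCAAT box (CCAAT or its reverse complement) was present once each in the Itgb8 and Col4a5 windows and in 33.8% of all windows. A match of letters is a description and does not show that a factor binds. Promoter entries were matched for 40 of the 55 members by symbol, and Itga6 and Col12a1 are not among them.

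Itgb8 encodes the beta 8 subunit, which pairs with the alpha v subunit alone and serves as a receptor for latent TGF-beta on neuroepithelial and glial cells. Its signals were 1384 and 1289 in Atoh1-GFP cells against 4278 and 2877 for dNeurog1-GFP. Both dNeurog1-GFP arrays lay above both Atoh1-GFP arrays, with no overlap. The level was lower in Atoh1-GFP cells by 2.59-fold in the mean, 3.04-fold within replicate 1 and 2.20-fold within replicate 2. The log2 difference of -1.37 had a limma adjusted p of 0.0076 with the block (standard error 0.15) and 0.12 in the model that lacks it (standard error 0.26). Over the 9 alternatives to the block fit the adjusted p of Itgb8 ran from 1.3e-05 to 0.084, and it passed in 8 of them, missing only when the spread was modelled without an intensity trend. Without the block it passed when any 1 of 3 arrays was left out (adjusted p = 0.0035 without Atoh1-GFP replicate 1, 0.022 without Atoh1-GFP replicate 2 and 0.0084 without dNeurog1-GFP replicate 2), and not without dNeurog1-GFP replicate 1 (log2 difference -1.09, adjusted p = 0.39). Each of these fits leaves 1 population with a single array, which is assumed to vary like the other population, and calls 151 to 369 genes in place of 21, so the passes add no support for Itgb8.

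Its partner Itgav, the alpha v subunit, was not called. Itgav gave signals of 2261 and 2769 in Atoh1-GFP cells against 2074 and 3019.7 for dNeurog1-GFP. The ranges overlapped, and the log2 difference was 0.0 (standard error 0.12 with the block, adjusted p = 1.0), with 0.12 within replicate 1 and -0.12 within replicate 2. Of the other beta subunits that can pair with alpha v, Itgb5 had a log2 difference of -0.04, made up of 0.31 for replicate 1 and -0.39 for replicate 2, and Itgb3 and Itgb6 were below the filter. Itgb1, the common partner of most alpha subunits, gave signals of 1622 and 764 in Atoh1-GFP cells against 1491 and 661 for dNeurog1-GFP. Those values separate by replicate number rather than by population, and the log2 difference was 0.16 (standard error 0.13 with the block, adjusted p = 0.52).

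Itga6 encodes the alpha 6 subunit, a laminin receptor that anchors the basal processes of neural progenitors. Its signals were 539 and 715 in Atoh1-GFP cells against 883 and 1132 for dNeurog1-GFP. The populations did not overlap, and the level was lower in Atoh1-GFP cells by 1.6-fold within replicate 1 and 1.56-fold within replicate 2. The log2 difference of -0.66 had an adjusted p of 0.047 in the block model and 0.54 in the other (standard errors 0.14 and 0.26). A dimmer probe set of Itga6 differed by -0.13, with 0.54 within replicate 1 and -0.81 within replicate 2. The call of Itga6 was lost in 3 of the 9 alternatives, with an adjusted p of up to 0.32. Its usual beta partners are Itgb1, described above, and Itgb4, which was below the filter.

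The other laminin-binding and collagen-binding alpha subunits that passed the filter were not called. Itga3, the alpha 3 laminin receptor subunit, had a log2 difference of 0.26 and similar values within replicate 1 (0.19) and replicate 2 (0.32). Itga10 and Itga2, which pair with beta 1 as collagen receptors, had 0.24 and 0.08. Itga7 and another collagen receptor subunit, Itga1, were below the filter.

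None of the receptors for fibronectin and related ligands was called. Itga5, the classical fibronectin receptor subunit, gave signals of 23.6 and 169.6 in Atoh1-GFP cells against 98.2 and 191 for dNeurog1-GFP. Its log2 difference of -0.69 came mostly from replicate 1 (-1.23, against -0.15 within replicate 2). Itga8 had 0.66 within replicate 1 and -0.66 within replicate 2, and Itga9 had 0.83 and -0.93. Itga4, the alpha 4 subunit found on crest cells and blood cells, had 0.76 and 0.0.

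Among integrins of blood lineages, Itga2b, the platelet alpha IIb subunit, had a log2 difference of 0.22, made up of -0.19 for replicate 1 and 0.62 for replicate 2. Itgae had the largest positive difference of the integrins, 0.73 (standard error 0.30 with the block, adjusted p = 0.22). Its signals of 97.9 and 96.8 in Atoh1-GFP cells lay above 30.9 and 64 in dNeurog1-GFP cells. Of 10 measured blood and platelet markers, 2 passed with the block, both higher in Atoh1-GFP cells (Pf4, 1.82, and Ppbp, 2.02). The background with the block was 6.61% of all genes in either direction and 2.82% for higher calls alone. The summed signal of 13 blood and platelet markers was 32167 and 33965 for Atoh1-GFP against 8568 and 23687 for dNeurog1-GFP. The globin Hbb-y alone made up most of each sum (17369 and 17478 against 5247 and 13725), so the sums say little of platelets or leukocytes. The part of blood cells in the Itgae and Itga2b values was not tested. The leukocyte subunits Itgal, Itgam, Itgax, Itgb2 and Itgb7 were below the filter, as was the pan-leukocyte marker Ptprc.

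Of the 3 integrin-named genes that are not subunits, Itgb3bp was called. It encodes a protein of the inner kinetochore, the structure that joins chromosomes to the spindle. Its signals were 521 and 424 in Atoh1-GFP cells against 894 and 877 for dNeurog1-GFP, with no overlap. The log2 difference of -0.87 (-0.74 and -0.99 within replicates 1 and 2) had an adjusted p of 0.032 in the block model and 0.29 in the other. Its other kept probe sets were also lower, by -0.70 and -0.40. Over the alternatives its adjusted p with the block ran from 0.0047 to 0.11, and it was lost in 3 of the 9. Itgb1bp1, which binds the beta 1 tail and restrains integrin activation, had -0.18. Itgb1bp2, a muscle protein that binds the same tail, had 0.49 (adjusted p = 0.31 with the block).

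**Figure D2:**
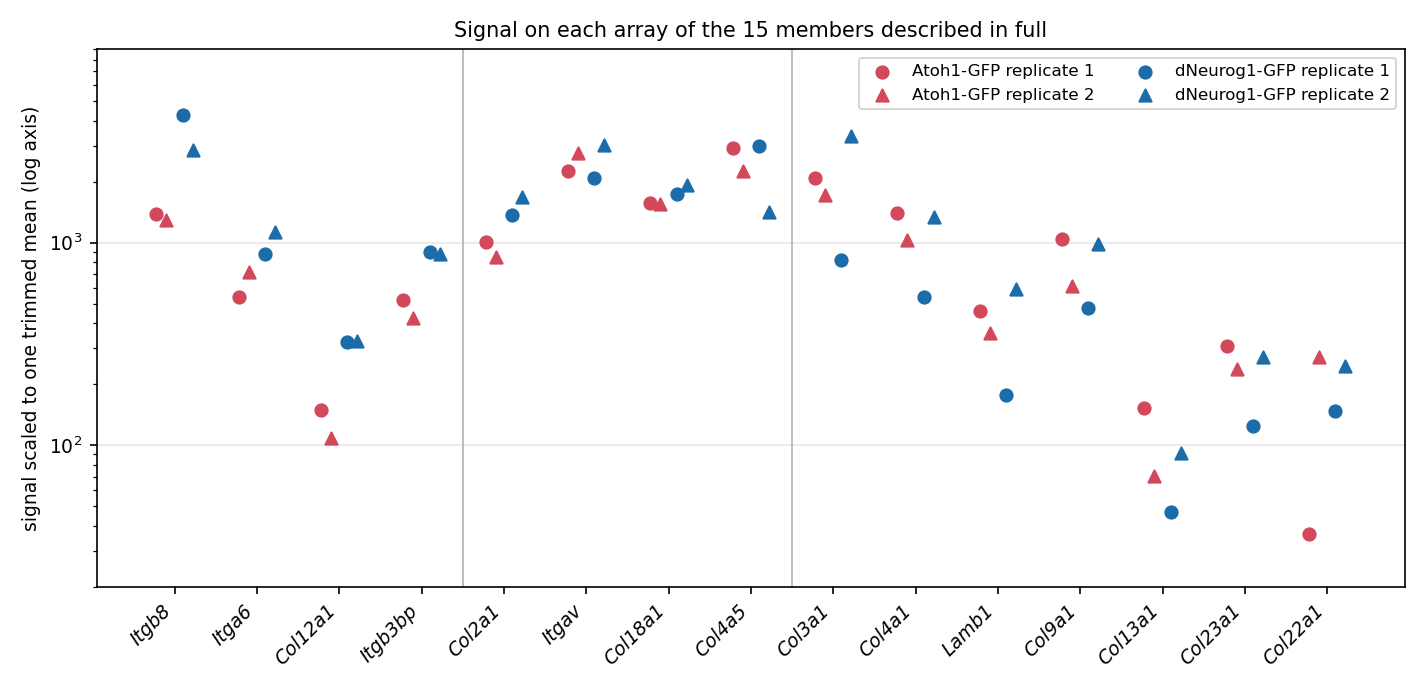
Signal on each array (log axis) of 15 members: the 4 called with the replicate block on the left, 4 further members with high signal in the middle and, on the right, 7 members whose differences within replicates 1 and 2 had opposite signs and reached 2-fold in 1 of them. Circles are replicate 1 and triangles replicate 2, red Atoh1-GFP and blue dNeurog1-GFP. Red and blue separate for Itgb8, Itga6, Col12a1 and Itgb3bp, and also for Col2a1 and Col18a1 in the middle. Such separation occurred for 35.1% of all genes tested. On the right the dNeurog1-GFP replicate 1 array is the lowest for 6 of the 7 genes.

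Some markers of the neuronal and progenitor state also differed between the populations. Of 11 neural tube genes, 5 passed in the block model (45.5%, against 6.61% of all genes). The progenitor factors Sox1 (-1.75) and Pax6 (-1.61) were called lower in Atoh1-GFP cells, and the neuronal genes Tubb3 (1.01), Dcx (0.99) and Elavl3 (0.77) higher. The other 6 were not called, among them the progenitor genes Sox2 (-0.11) and Nes (0.40) and the neuronal genes Elavl4 (0.56), Stmn2 (0.51), Ncam1 (0.37) and Mapt (-0.26). The part of the neuron and progenitor share of the sort in the differences of Itgb8, Itga6, Col12a1 and Itgb3bp was not tested. In sorted cells measured in bulk, fewer cells of a type and less RNA per cell cannot be told apart.

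Laminin genes gave no call. The alpha 1 chain gene Lama1, whose product is the major laminin alpha chain of the early neuroepithelial basement membrane, gave signals of 672 and 685 in Atoh1-GFP cells against 890.1 and 839 for dNeurog1-GFP. It was the only laminin gene whose populations did not overlap, and the log2 difference was -0.33 (standard error 0.14 with the block, adjusted p = 0.23), with -0.39 within replicate 1 and -0.28 within replicate 2. Lamc1, the gamma 1 chain shared by most laminins, had signals of 462 and 421 against 428 and 486, a log2 difference of -0.05. Those ranges overlapped, and its standard error with the block was 0.18.

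The remaining laminin chains lay within 0.4 log2 units of 0 in either direction in their means. Lama5, the alpha chain of later epithelial basement membranes, had -0.08, and Lamb2, a beta chain also found at synapses, had -0.13. Lama2 had 0.37 and Lama4, an alpha chain of vessel walls, -0.17, both from dim signals. Lamc3 had -0.09 in its brighter probe set and 0.89 in another, so the probe sets of this gene went opposite ways. Lamb1, the beta 1 chain that assembles with alpha 1 and gamma 1, stood apart. Its signals were 461 and 357 in Atoh1-GFP cells against 176 and 589 for dNeurog1-GFP. The dNeurog1-GFP arrays thus lay on either side of the Atoh1-GFP arrays, with a difference of 1.25 within replicate 1 and -0.67 within replicate 2. A second probe set of Lamb1 gave 1.26 and -0.73.

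The collagen gene that passed was Col12a1, whose product sits on the surface of fibrils and lacks a fibril of its own. Its signals were 149 and 109 in Atoh1-GFP cells against 324 and 328 for dNeurog1-GFP. The populations did not overlap, and the level was lower in Atoh1-GFP cells by 1.96-fold within replicate 1 and 2.55-fold within replicate 2. The log2 difference of -1.16 had an adjusted p of 0.038 in the block model and 0.27 in the other (standard errors 0.23 and 0.31). A dimmer probe set differed by -0.50. The adjusted p of Col12a1 with the block ran from 0.0034 to 0.097 over the alternatives, and the call was lost in 3 of 9.

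The other fibril-associated collagens were not called. Col14a1, a close relative of Col12a1, had signals of 309.9 and 536 against 489.6 and 709.7 and a difference of -0.50 (block adjusted p = 0.15), with -0.61 and -0.38 within replicates 1 and 2. Col9a3 had 0.69 (0.89 and 0.48), from signals of 156 and 80.1 in Atoh1-GFP cells against 69.2 and 48.4 for dNeurog1-GFP. Col9a1, which encodes a chain of the same collagen IX trimer, differed by 1.09 within replicate 1 and -0.65 within replicate 2, while a dimmer probe set gave 1.76 and 0.17. Its signals were 1044 and 611 in Atoh1-GFP cells against 474 and 980.3 for dNeurog1-GFP, and the ranges overlapped. Col22a1 had 36.6 and 273 against 147 and 246, and its -0.63 came from replicate 1 (-1.38, against 0.13). Col16a1 had 0.0.

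Fibrillar collagens are the products of connective tissue and cartilage, and 10 of their genes passed the filter, with 0 calls. Col2a1, the cartilage collagen that the notochord and neuroepithelium also make, gave signals of 1002 and 848 in Atoh1-GFP cells against 1366 and 1687 for dNeurog1-GFP. The populations did not overlap, and the log2 difference was -0.70 (-0.44 and -0.97 within replicates 1 and 2; adjusted p = 0.064 in the block model and 0.43 in the other). Col2a1 passed with the block in 3 of the 9 alternatives, those that set the arrays to another scale, where its adjusted p was as low as 0.011.

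In their chosen probe sets, the other 9 fibrillar genes had differences of opposite sign within the replicate numbers. They are Col1a1, Col1a2, Col3a1, Col5a1, Col5a2, Col5a3, Col11a1, Col11a2 and Col27a1. Some of these signs rested on a value near 0, as for Col5a1 (0.04 within replicate 1) and Col11a2 (0.05 within replicate 2). Of the 10 genes, 8 were higher in Atoh1-GFP cells within replicate 1 and lower within replicate 2 (80.0%, against 17.4% of all genes tested), and 1, Col11a2, went the reverse way. The family median was 0.28 within replicate 1 and -0.32 within replicate 2. Col3a1, a collagen of loose connective tissue and vessel walls, had the widest gap. Its signals were 2089 and 1722 in Atoh1-GFP cells against 822 and 3362 for dNeurog1-GFP, which gave 1.31 within replicate 1 and -0.95 within replicate 2. Col1a2, a chain of the type I collagen of mesenchyme, had signals of 1733 and 834 against 1049.6 and 1101, a difference of 0.71 within replicate 1 and -0.39 within replicate 2. A second probe set of Col3a1 gave 0.98 and -1.33, and those of Col1a1, Col1a2, Col5a1, Col5a2 and Col11a1 also had opposite signs. That of Col27a1 was lower within both replicate numbers (-0.23 and -0.63).

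**Figure D3:**
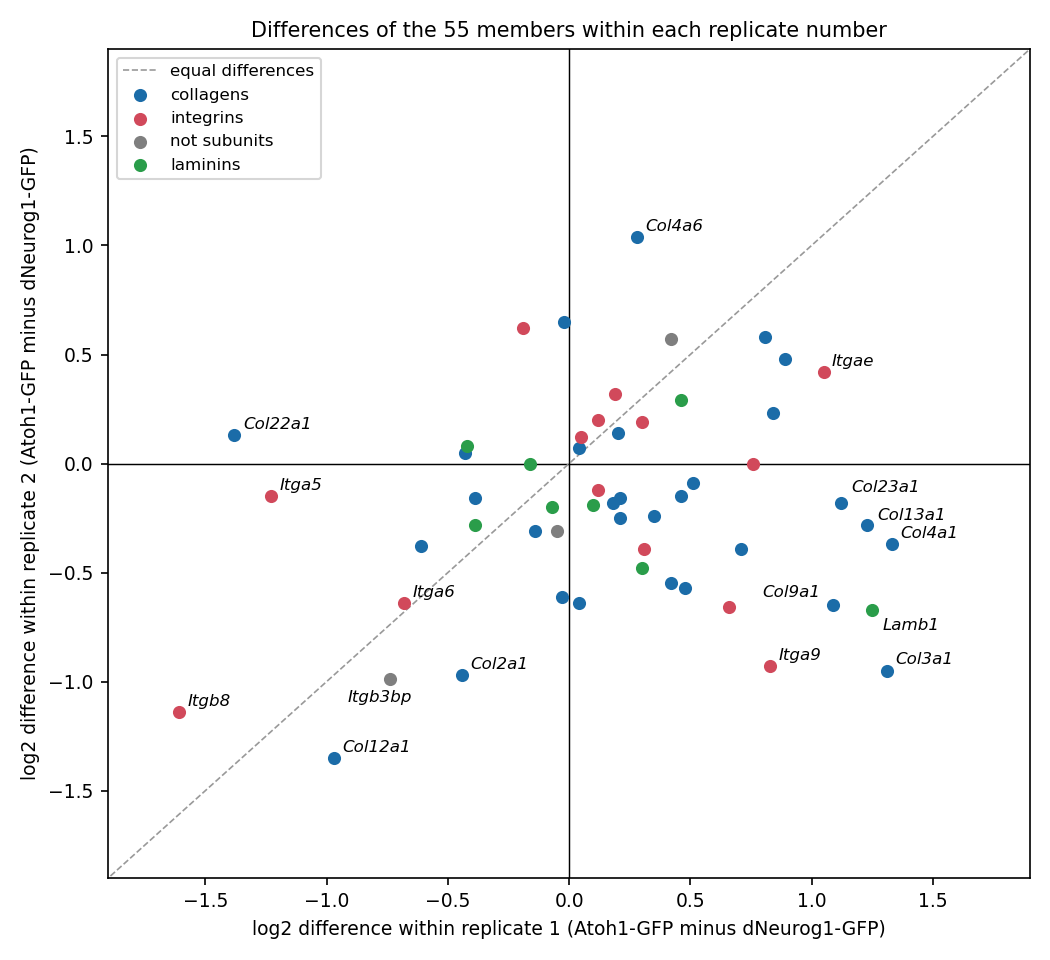
Log2 difference (Atoh1-GFP minus dNeurog1-GFP) of the 55 members within replicate 1 (x axis) and within replicate 2 (y axis), coloured by class. Itgb8, Col12a1, Itgb3bp and Itga6 lie near the dashed line of equal differences at the lower left, and 22 members, Col3a1 and Lamb1 among them, lie in the lower right, higher within replicate 1 and lower within replicate 2.

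Over all members, the differences within the replicate numbers had the same sign for 28 of 55 (50.9%), against 67.0% of all genes tested. For 22 members the level in Atoh1-GFP cells was higher within replicate 1 and lower within replicate 2, and for 5 the reverse. Opposite signs with at least 2-fold in 1 replicate number occurred for 7 members (12.7%) and for 1.58% of all genes. They were Col3a1, Col4a1, Col9a1, Col13a1, Col22a1, Col23a1 and Lamb1, and except for Col22a1 their lowest signal was on the dNeurog1-GFP replicate 1 array. Left without that array, Col3a1 differed by -0.82, Lamb1 by -0.50, Col9a1 by -0.28, Col4a1 by -0.16 and Col23a1 by -0.01, each opposite in sign to its value over 4 arrays, while Col13a1 kept its sign with 0.15. The opposite signs depended on the probe set. Of the 6 of these genes with another kept probe set, those of Col3a1 and Lamb1 had the same reversal. Those of Col4a1, Col9a1 and Col23a1 had positive differences for replicates 1 and 2 alike, and the 2 of Col22a1 gave 0.08 and -0.06, and -0.11 and -0.33. Over all members, 26 had more than 1 kept probe set, and 8 had 1 whose mean difference was of the other sign.

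Markers of mesenchyme and somites moved in the same way. Of 17 measured, 17 were higher in Atoh1-GFP cells within replicate 1 and 14 of these were lower within replicate 2, with medians of 0.88 and -0.39, and 0 passed the test in either fit. The summed signal of the 18 listed markers was 5633 and 3804 for Atoh1-GFP against 2737 and 5381 for dNeurog1-GFP. Pdgfra, a receptor of mesenchymal cells, had 925 and 625 against 226 and 778. The mesenchyme sum was lowest on dNeurog1-GFP replicate 1 and highest on Atoh1-GFP replicate 1, and the fibrillar genes did not share 1 array order. Col3a1 was lowest on dNeurog1-GFP replicate 1 and highest on dNeurog1-GFP replicate 2. Col1a2 was lowest on Atoh1-GFP replicate 2 (834) and highest on Atoh1-GFP replicate 1 (1733). Pericyte and smooth muscle markers had medians of 1.43 within replicate 1 and -0.65 within replicate 2 over 5 genes. The part of mesenchymal and perivascular cells in the values of fibrillar collagens and Lamb1 was not tested.

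Basement membrane collagens included 7 measured genes with a median of 0.48, and none was called. Col4a1 and Col4a2, which encode the chains of the ubiquitous collagen IV trimer and lie side by side in the genome, differed by similar amounts in their means. Col4a1 gave signals of 1395 and 1031 in Atoh1-GFP cells against 537 and 1344 for dNeurog1-GFP, a log2 difference of 0.48, made up of 1.33 for replicate 1 and -0.37 for replicate 2, while a second probe set gave 0.38 and 0.30. Col4a2 had 696 and 779.9 against 375 and 662, a difference of 0.53 (0.84 and 0.23; adjusted p = 0.18 with the block). Its populations did not overlap, whereas those of Col4a1 did.

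Col4a5 and Col4a6 encode the chains of a collagen IV trimer of more specialised basement membranes. Col4a5 gave signals of 2944 and 2256 in Atoh1-GFP cells against 2982 and 1422 for dNeurog1-GFP, with overlap, and a difference of 0.32 (block adjusted p = 0.35). Col4a6 had 439 and 545 against 356 and 248, without overlap, and a difference of 0.66 (adjusted p = 0.17 with the block). Both differed more within replicate 2, Col4a5 by 0.65 and Col4a6 by 1.04, than within replicate 1, where they had -0.02 and 0.28. A second probe set of each gene gave 0.83 and 0.79 within replicate 2. Col4a3 and Col4a4, the remaining head-to-head pair of the family, were below the filter.

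The proteoglycan collagens of basement membranes went opposite ways in their means. Col15a1 had the largest positive difference of the 30 collagens, 0.70 (standard error 0.26 with the block, adjusted p = 0.19). Its signals of 156 and 104 in Atoh1-GFP cells lay above 74.8 and 58.8 in dNeurog1-GFP cells. Col18a1, the precursor of endostatin, had 1572 and 1551 against 1738 and 1924, a difference of -0.22 (standard error 0.12, adjusted p = 0.34 with the block), while a second probe set of Col18a1 gave 0.08. Col7a1, the anchoring fibril collagen of skin, had -0.28.

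Endothelial markers, whose cells make collagen IV and Col15a1, were higher in Atoh1-GFP cells for 10 of 10 measured genes within replicate 1 (median 1.01) and for 8 of 10 within replicate 2 (median 0.23), with 0 calls. The summed signal of 12 endothelial markers was 2753 and 1575 in Atoh1-GFP cells against 1195 and 1315 for dNeurog1-GFP, and the defining markers Pecam1 and Tie1 were below the filter. Tek, an endothelial receptor, had 268 and 62.2 against 53.2 and 42.9. The part of endothelial cells in the values of Col4a1, Col4a2 and Col15a1 was not tested.

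**Figure D4:**
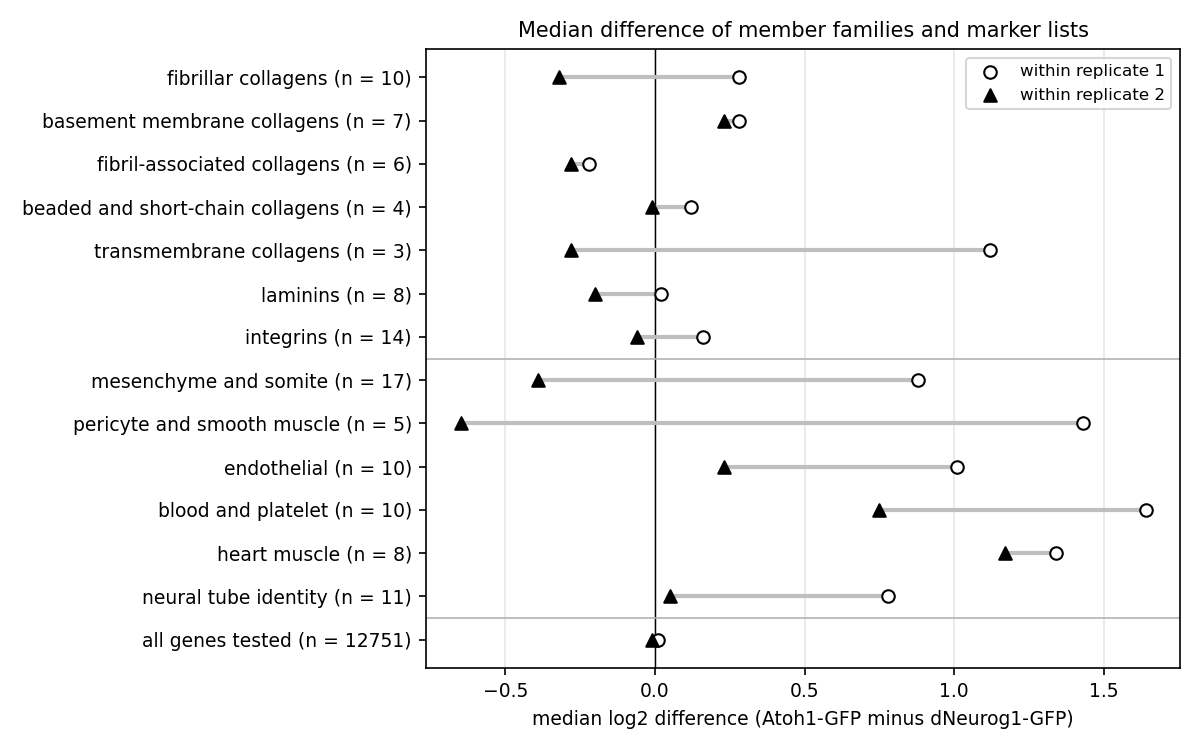
Median log2 difference (Atoh1-GFP minus dNeurog1-GFP) within replicate 1 (open circles) and within replicate 2 (triangles) of the member families, of marker lists of other cell types and of all genes tested, with the number of genes in brackets. Fibrillar collagens (0.28 and -0.32) cross 0 in the same direction as mesenchyme and somite markers (0.88 and -0.39). So do transmembrane collagens (1.12 and -0.28), beaded and short-chain collagens (0.12 and -0.01), laminins (0.02 and -0.2) and integrins (0.16 and -0.06). Basement membrane collagens (0.28 and 0.23) and fibril-associated collagens (-0.22 and -0.28) do not.

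The remaining collagens gave no call. The collagen VI genes Col6a1, Col6a2 and Col6a3, chains of the beaded filaments of connective tissue, had 0.06, 0.21 and 0.17, and Col26a1 had -0.32. Of the transmembrane collagens, Col13a1 and Col23a1 each had a log2 difference of 0.47. Col13a1 gave signals of 153 and 70.1 in Atoh1-GFP cells against 46.9 and 91.9 for dNeurog1-GFP, and Col23a1 had 308 and 238 against 125 and 273, both with overlap. They were higher within replicate 1 (1.23 and 1.12) and lower within replicate 2 (-0.28 and -0.18). A second probe set of Col23a1 was higher within both (0.81 and 0.23). Col25a1, a neuronal membrane collagen needed for motor innervation of muscle, had -0.06, with 0.42 and -0.55 within replicates 1 and 2. A dimmer probe set of Col25a1 had the other sign, 0.66, with 1.35 and -0.02 within replicates 1 and 2.

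Other genes of the matrix were called in both directions with the block, and none without it. Of 25 other basement membrane and matrix glycoproteins, 2 were called (8.0%, against 6.61% of all genes), both lower in Atoh1-GFP cells. They were netrin 1, Ntn1 (-1.61, 298 and 356 against 912 and 1225), a laminin-related guidance cue, and the basement membrane glycoprotein Fbln1 (-0.70). Of 21 matrix proteoglycans, 2 were higher and 3 lower. The neuronal heparan sulphate proteoglycan Gpc2 (1.23) and the perineuronal lectican Ncan (0.77) were higher, while Cspg5 (-1.50), Ptprz1 (-1.0) of radial glia and the syndecan Sdc1 (-0.79) were lower. These were 23.8% of the list, against the 6.61% of all genes.

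Of 18 matrix proteases and inhibitors, the block model called 2 higher and 1 lower (16.7%, against 6.61% of all genes). Adamts5, an enzyme that cleaves lecticans, was higher by 4.04-fold (2.02), with signals of 889 and 1849 against 264 and 326. Mmp14, a membrane-anchored collagenase, was higher by 1.07, and Adamts20, a versican-cleaving protease, was lower by a log2 difference of -1.59. Of 19 collagen-processing enzymes 1 was called (5.26%, below the 6.61% of all genes), Loxl1 (1.38), a lysyl oxidase that cross-links elastin and collagen. The chaperone and hydroxylase genes of collagen folding were not called.

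On the receptor side, 1 of 12 non-integrin matrix receptors was called (8.33%, near the 6.61% of all genes), the hyaluronan receptor Cd44 (1.31), which was higher in Atoh1-GFP cells with signals of 387 and 716 against 171 and 220. Of 21 integrin adaptors and kinases, 2 were called (9.52%, against 6.61%): the scaffold Bcar1 was higher (0.61) and vinculin, Vcl, which ties integrins to actin, lower (-0.59). The median of this list was 0.01, and 21 of 21 members differed by less than 2-fold.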

How the data were processed

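RNA was measured on 4 Affymetrix mouse arrays, 2 each of Atoh1-GFP and dNeurog1-GFP cells. The authors deposited linear signal intensities from MAS5, 1 per probe set, per the submitters' processing notes. No source used here gives its version or scaling target. Of 45101 probe sets, 64 controls were left out, and 34945 had 1 gene symbol in the platform annotation, 932 several and 9160 none. Probe sets and the 40th percentile filter were taken from the deposited values, and arrays were then scaled to a trimmed mean of 500. The deposited trimmed means differed by replicate number, hence the scaling.

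Differences were tested in R 4.3.3 with limma 3.58.1 (lmFit, eBayes with an intensity trend, Benjamini-Hochberg adjustment). The design has no block. The replicate number, shared by 1 array of each population with the same deposited trimmed mean, was also fitted as a block, and those calls are named as such. Deviations of same-numbered arrays from their population means correlated at 0.64, taken over genes that are no independent replicates. The labels do not say that a number marks a shared day or litter. Residual degrees of freedom were 2, or 1 for the block model, where the prior had a median of 5.15, and the block p-values thus lean on the spread shared across genes. An exact permutation test of 2 against 2 arrays cannot go below 0.33 and was not used. The number of arrays limits the precision.

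Both models were tested on simulated data built from the 12751 gene means, with 100 genes changed by each of 1 and 2 log2 units. The 10 simulations also held the replicate number effects and the noise of the block model. They thus favoured that model in advance and cannot show which model suits the real arrays. For Atoh1-GFP minus dNeurog1-GFP, the block model recovered on average 83.9 genes changed by 1 unit and 100 changed by 2, with 17.4% of its calls false. That false share lay above the 0.05 set as the threshold of the adjusted p. The model without the block recovered 0 and 6.6.

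Members described in full were those called in either model, those 2-fold apart in 1 direction within both replicate numbers, the 6 with the highest mean signal and those whose sign differed between replicate numbers with at least 2-fold in 1 of them. Of other lists, up to 4 called genes by p were named. Of marker lists, the rule gave counts and summed signals. Ptprz1 and the markers named singly with a value (such as Dcx, Pdgfra and Tek) fall outside these rules and were chosen after their values were seen. The members, gene lists and marker lists were chosen with earlier results of these data known. Alternatives tried were other scalings, pseudocounts of 16 and 64, no filter or a 60th percentile filter, the mean of all probe sets of a gene, no intensity trend and leaving out each array.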

Additional observations from a re-analysis of the deposited data

How the results depend on the processing

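Without the replicate block, 0 of the 55 members were called, and with it 4. The count without the block stayed at 0 under the alternative scalings, pseudocounts, filters and probe set rule and without an intensity trend. In those fits 0 to 5 members, and 241 to 1144 of all genes tested, had an unadjusted p under 0.05 in limma. With the block the count was 4 to 5 under the scalings, pseudocounts and the stricter filter. It was 1 (Itgb8) with no filter, which tests 18193 genes, 1 (Itgb8) with the mean of all kept probe sets, and 0 without an intensity trend. In that last fit limma called 0 of the 12751 genes, and 11 members and 2549 of all genes had an unadjusted p under 0.05. The cause of the last change was not tested. Over all genes the block count was 843, and 1169 on the deposited scale, 1661 after quantile normalization, 1249 on one 75th percentile and 353 with no filter. Without the block it was 21, 13, 26, 16 and 14, and leaving out single arrays gave 151 to 369. Members 2-fold apart within both replicate numbers became 2, Col12a1 joining Itgb8, after quantile normalization and with a pseudocount of 16.

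The median of the integrins ran from -0.11 to 0.35 when single arrays were left out, that of the collagens from -0.15 to 0.36 and that of the laminins from -0.17 to 0.06, the highest value in each case without Atoh1-GFP replicate 2. Other alternatives moved these medians by less than the spread between replicate numbers. Itgav turned to 0.03 after quantile normalization, with or without the block. Leaving out single arrays, which could be done only without the block, kept the sign of 39 to 47 of the 55 members and turned it for 8 of the 15 described in full. The range was -0.27 to 0.27 for Itgav (0.14 without Atoh1-GFP replicate 1 and 0.27 without dNeurog1-GFP replicate 2), -0.21 to 0.84 for Col4a5 and -1.70 to 0.45 for Col22a1. With turns without dNeurog1-GFP replicate 1, it was -0.82 to 1.18 for Col3a1, -0.50 to 1.08 for Lamb1, -0.28 to 0.72 for Col9a1 (also -0.15 without Atoh1-GFP replicate 1), -0.16 to 1.12 for Col4a1 and -0.01 to 0.95 for Col23a1. Dim probe sets near the filter limit what can be said of the 26 members below it.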

Other observations

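Markers of other cell types that the dissected tissue could hold gave these values, as log2 differences (Atoh1-GFP minus dNeurog1-GFP). Heart muscle markers had a median of 1.15 over 8 genes, and 2 were called higher with the block in limma (25.0%, against 6.61% of all genes). These were Myl7 (2.27, adjusted p = 0.038) and Myl4 (2.11, adjusted p = 0.014). The summed signal of that list was 2127 and 4347 for Atoh1-GFP replicates 1 and 2, against 544 and 2231 for dNeurog1-GFP. Neural crest markers had a median of -0.25 over 5 genes, and 1 of the 5 was called lower in both models. That gene was Tfap2a (-2.74, block adjusted p = 0.0034), a transcription factor of crest and dorsal ectoderm. The background for lower calls was 3.79% of all genes with the block and 0.0784% without it. Of 4 skeletal muscle markers 1 was called lower with the block (25.0%, against 6.61% of all genes) and 0 without it. The called gene was Pax3 (-1.50, block adjusted p = 0.0073), which dorsal neural progenitors also express. Epidermal markers had a median of 0.16 over 5 genes and floor plate and notochord markers 0.69 over 3, with 0 calls in either model.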
